A study of Mus musculus with 18 samples.

Results

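The nuclear-encoded subunits of the respiratory chain and of ATP synthase were described across 18 RNA sequencing libraries. The libraries were made from T23 cells, an adenocarcinoma line of the mouse prostate. Members were the protein-coding genes whose mouse symbols name a subunit of complexes I to V (the Nduf, Sdh, Uqcr, Cox4 to Cox8 and Atp5 families), together with Cyc1 and the electron carrier Cycs. The set held 87 of the 55487 genes in the count files, with 37 in complex I, 4 in complex II, 9 in complex III, 18 in complex IV, 18 in complex V and cytochrome c itself. Atp5o is present under 2 gene identifiers, one of them a read-through transcript, so the set has 86 distinct symbols. Another 8 matching symbols were not annotated as protein-coding and were left out.

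The libraries formed 6 groups of 3 replicates. One group was T23 cells grown with fibroblasts in the presence of enzalutamide (an androgen receptor antagonist) and isoliquiritigenin (a plant chalcone), hereafter the isoliquiritigenin co-culture. A second group had fibroblasts and enzalutamide without isoliquiritigenin (the enzalutamide co-culture), and another had enzalutamide and no fibroblasts. The other groups received no drug, and were T23 cells with fibroblasts lacking Sparc (the Sparc-deficient co-culture), T23 cells with wild-type fibroblasts (the wild-type co-culture) and T23 cells alone. Drug doses, culture times and the passage of the cells were not given in the sources used here, nor was the way in which the RNA of T23 cells was separated from that of fibroblasts. The descriptions of both enzalutamide co-cultures call their fibroblasts human, while the fibroblast name in their titles does not differ from that of the wild-type group, so the comparison with the wild-type co-culture assumes the same fibroblasts. All groups come from a single tumour line. The labels do not say whether replicates were separate cultures, so p-values measure the spread between these libraries, which may be technical.

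Complexes I to IV pass electrons from NADH and succinate to oxygen. Complexes I, III and IV pump protons out of the mitochondrial matrix as they do so, complex II does not, and complex V uses the returning protons to make ATP. Most subunits are encoded in the nucleus, translated in the cytosol and imported, while a small core of complexes I, III, IV and V is encoded by mitochondrial DNA. In the normal prostate epithelium, citrate is secreted rather than fully oxidised, and prostate adenocarcinomas are known for a return to citrate oxidation.

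Total counts ran from 16.1 to 26.7 M per library, and the members took 0.782 to 0.869% of them in 17 libraries. In replicate 2 of enzalutamide without fibroblasts the members held 0.514%, and 26.4% of its counts fell on a ribosomal RNA gene. Levels are therefore given as CPM, a gene's counts per M of its library's total after TMM scaling between libraries, except where genes are compared with each other. Of 10 epithelial marker genes, 1 averaged 1 CPM or more in a group. This was Krt19, with 0.414 to 1.97 CPM in the isoliquiritigenin co-culture and 8.68 to 10.1 CPM in T23 cells alone, and up to 18.4 CPM in the Sparc-deficient co-culture. The summed level of all 10 was 2.07 to 19.7 CPM, in a line labelled as adenocarcinoma. Of 12 fibroblast markers, 11 reached 1 CPM, and their sum was 31594 to 32770 CPM in T23 cells alone, where no fibroblasts had been added. These markers therefore do not show how much fibroblast RNA the co-culture libraries hold. In bulk RNA, fewer cells of a type and less RNA per cell cannot be told apart.

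Promoter sequences, taken from RefSeq on the mouse build GRCm38.p6, were at hand for 70 of the 86 symbols. Each covers 250 bases before and 50 after a start annotated in RefSeq. That start can differ from the end of the gene coordinates given below, as it does for Ndufs4. They are shown here for Ndufs4, Atp5c1 and Atp5e, whose transcripts changed in the comparisons below, and for Cox6a1, which did not change in any of them. The regions are chr13:114388045-114388344 for Ndufs4, chr2:10080461-10080760 for Atp5c1, chr2:174464052-174464351 for Atp5e and chr5:115348909-115349208 for Cox6a1, all on the minus strand and written 5′ to 3′ in the direction of transcription. Capitals mark matches, on either strand, to the motifs of 3 factors known to drive nuclear respiratory genes: GCGCA and GCGC around 1 free base for NRF1, CCGGAAG for the ETS factor GABP and AAGATGG for YY1.
Ndufs4: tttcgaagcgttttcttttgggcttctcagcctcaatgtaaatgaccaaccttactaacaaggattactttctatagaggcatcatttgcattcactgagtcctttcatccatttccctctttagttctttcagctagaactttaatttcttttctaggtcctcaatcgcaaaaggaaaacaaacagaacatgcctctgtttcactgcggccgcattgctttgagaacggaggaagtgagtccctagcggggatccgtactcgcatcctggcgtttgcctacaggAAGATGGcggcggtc
Atp5c1: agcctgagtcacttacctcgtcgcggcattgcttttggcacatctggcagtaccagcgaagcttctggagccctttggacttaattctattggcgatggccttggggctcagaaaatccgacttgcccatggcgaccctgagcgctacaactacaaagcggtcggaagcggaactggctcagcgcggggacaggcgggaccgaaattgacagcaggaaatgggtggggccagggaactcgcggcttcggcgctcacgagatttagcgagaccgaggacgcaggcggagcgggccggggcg
Atp5e: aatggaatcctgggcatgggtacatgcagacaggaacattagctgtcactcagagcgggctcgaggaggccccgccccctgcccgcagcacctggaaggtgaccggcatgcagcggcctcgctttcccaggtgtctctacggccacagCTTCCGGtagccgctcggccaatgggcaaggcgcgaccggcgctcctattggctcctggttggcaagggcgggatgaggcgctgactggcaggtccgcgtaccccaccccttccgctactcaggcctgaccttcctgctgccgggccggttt
Cox6a1: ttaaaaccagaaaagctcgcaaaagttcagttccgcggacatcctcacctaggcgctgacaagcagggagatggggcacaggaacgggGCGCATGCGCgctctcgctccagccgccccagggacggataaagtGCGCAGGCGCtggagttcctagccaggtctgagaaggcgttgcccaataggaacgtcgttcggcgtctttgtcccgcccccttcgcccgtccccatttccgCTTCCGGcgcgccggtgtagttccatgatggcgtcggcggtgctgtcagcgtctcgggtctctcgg

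Ndufs4 carried a YY1 match, Atp5e an ETS match, Cox6a1 matches to NRF1 and ETS, and Atp5c1 none of the 3. Over all 70 member promoters, 16 held the NRF1 motif (22.9%), against 10.7% of the 9804 promoters of tested genes that the table holds. The ETS motif was in 15 member promoters (21.4%), against 18.6% of the promoters of tested genes. YY1 matches were in 10 member promoters (14.3%), against 7.34% of promoters of tested genes, and 7 of the 10 belonged to complex I subunits, of which 33 had a promoter. Complex V had the NRF1 motif in 5 of 15 promoters and complex IV in 1 of 13. The promoters compared were picked by different rules. For a member it was the one nearest the annotated gene start, and for tested genes the first one listed. The member promoters also include those of a few members that were not tested. A match is a string of letters in this window and does not show binding.

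Levels of different genes were compared as TPM, counts per base of messenger RNA scaled to the same sum over protein-coding genes in every library. In T23 cells alone the catalytic beta subunit of ATP synthase, Atp5b, had the highest level of the set, with 1629 ± 13.9 TPM (SD, n = 3). Ndufa4, which carries a complex I name but is now counted to complex IV, followed with 850 ± 49.5 TPM. Next came Atp5g3, which encodes the c-ring subunit of ATP synthase, with 820 ± 24.2 TPM, Atp5a1 (the alpha subunit) with 794 ± 19.8 TPM and Cox4i1 with 789 ± 13.7 TPM. For Ndufa4, Atp5g3, Atp5a1 and Cox4i1 the ranges of 1 SD around the means all overlapped.

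The 3 genes for the identical c-ring subunit differed widely, with Atp5g2 at 143 ± 0.651 TPM and Atp5g1 at 39.7 ± 0.549 TPM below Atp5g3. The order of Atp5g2 and Atp5g1 depends on the messenger RNA length used, 586 bases for Atp5g2 and 2676 for Atp5g1. In counts summed over the 18 libraries Atp5g1 was the higher, with 17195 against 12433 for Atp5g2. The 4 subunits of succinate dehydrogenase were closer together. Its membrane anchor Sdhd stood at 193 ± 6.46 TPM, the flavoprotein Sdha at 117 ± 2.31 TPM, the iron-sulphur subunit Sdhb at 115 ± 3.67 TPM and the anchor Sdhc at 101 ± 4.10 TPM, so Sdha and Sdhb did not differ beyond their spread. Cycs was near the low end with 16.7 ± 0.442 TPM, and Cyc1, the haem subunit of complex III to which it docks, had 205 ± 5.56 TPM.

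Low values partly concern genes whose reads are hard to place. For each member, the share of 50-base windows of its transcripts that also occur in another gene was computed, since reads from such windows match more than 1 gene. That share was 20% or more in 12 members and 0 in 49. It was 68.5% for Atp5l, 37.0% for Ndufb4 and 28.5% for Cycs, whose levels were 2.03, 7.96 and 16.7 TPM in T23 cells alone, so these levels are uncertain. Ndufb2 was also low, at 11.3 ± 0.541 TPM, with 0.0686% of its windows in another gene. Atp5g2, with 36.7% of its windows shared, is another member whose level is uncertain. TPM also depends on the messenger RNA length used, 2413 bases for Ndufb2 and 3123 for Cycs, against a median of 751 over tested members.

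**Figure D1:**
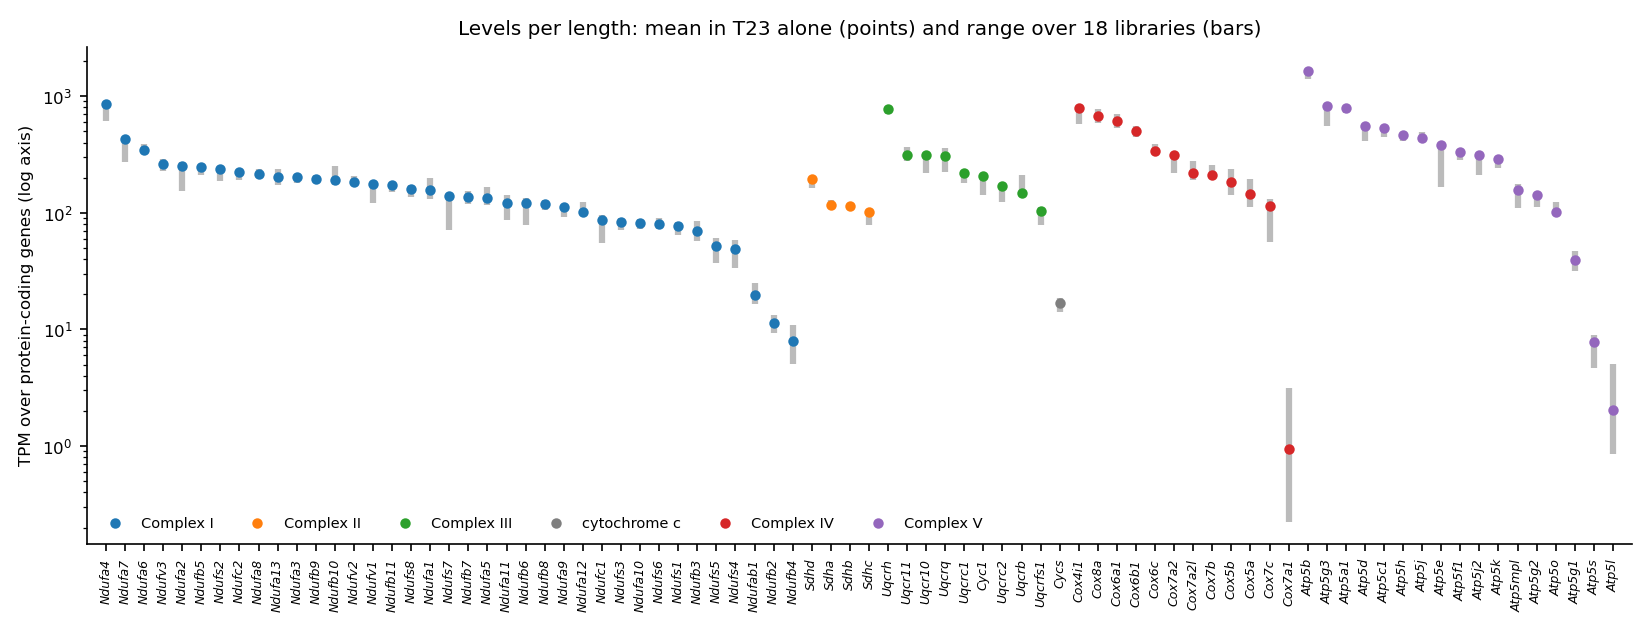
Levels of the 80 tested members by complex, in TPM on a log axis. Points are means over the 3 libraries of T23 cells alone and bars span the lowest to the highest of all 18 libraries. Atp5b is highest at 1629 TPM and Cox7a1 lowest at 0.942 TPM.

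Isoforms restricted to other tissues were close to absent. Cox7a1, the heart and skeletal muscle form of subunit 7a, ranged from 0.0421 to 0.591 CPM over the 18 libraries, while its ubiquitous counterpart Cox7a2 had 74.6, 74.9 and 74.5 CPM in the isoliquiritigenin co-culture and 83.6, 83.4 and 91.4 CPM in T23 cells alone. Cox4i2, the lung-enriched and oxygen-responsive form of subunit 4, was detected in 4 libraries at no more than 0.0843 CPM, below the level of 3 counts (0.112 to 0.186 CPM), which is what a count of 0 still allows. Cox6a2, the muscle form of subunit 6a, reached 0.215 CPM at most. The summed level of all 7 such isoforms was 0.0485 to 0.640 CPM. Of 6 muscle markers, Myh6, Myod1 and Myog were at 0 in all libraries. The summed level of all 6 markers was 0.184 to 1.18 CPM, so the others were detected at low levels. With too few counts in most libraries, 6 of these 7 isoforms and the Atp5o read-through were not tested, which left 80 members in the tests.

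Across the 6 groups the members varied little. For the 80 tested members, the ratio of the highest to the lowest group mean had a median of 1.16, against 1.30 over all 13600 tested genes and 1.22 over the 9053 of them at 10 CPM or more. That ratio was under 1.2 in 52 members (65.0%), against 30.9% of all tested genes and 43.6% of those at 10 CPM or more. Ndufa3, an accessory subunit of complex I, had the smallest ratio of the set, 1.02. A ratio of 1.5 or more was found in Ndufb4 (1.5), Atp5l (2.49) and Cox7a1 (3.62). All 3 are among the lowest of the set, and Atp5l and Cox7a1 rest on 4 to 27 and 1 to 15 counts per library.

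Summed over all members, the level was 7582, 7794 and 7994 CPM in the isoliquiritigenin co-culture and 8015, 8053 and 8089 CPM in the enzalutamide co-culture. Enzalutamide without fibroblasts gave 8159, 7510 and 8656 CPM, and the Sparc-deficient co-culture 8416, 7943 and 7806 CPM. The wild-type co-culture had 8311, 8399 and 8112 CPM and T23 cells alone 8113, 8321 and 8207 CPM. The library rich in ribosomal RNA was the lowest of all 18 at 7510 CPM. All libraries of the isoliquiritigenin co-culture lay below those of the enzalutamide co-culture, and all of the enzalutamide co-culture below those of the wild-type co-culture. In the other comparisons the ranges overlapped. On the TPM scale the isoliquiritigenin and enzalutamide co-cultures did overlap, so the lower sum with isoliquiritigenin depends on the scale. They had 19633, 20000 and 19855 TPM with isoliquiritigenin and 20127, 19619 and 19536 TPM in the enzalutamide co-culture. The enzalutamide co-culture still lay wholly below the wild-type co-culture, which had 20511, 20707 and 20241 TPM. These sums are descriptions and were not tested.

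**Figure D2:**
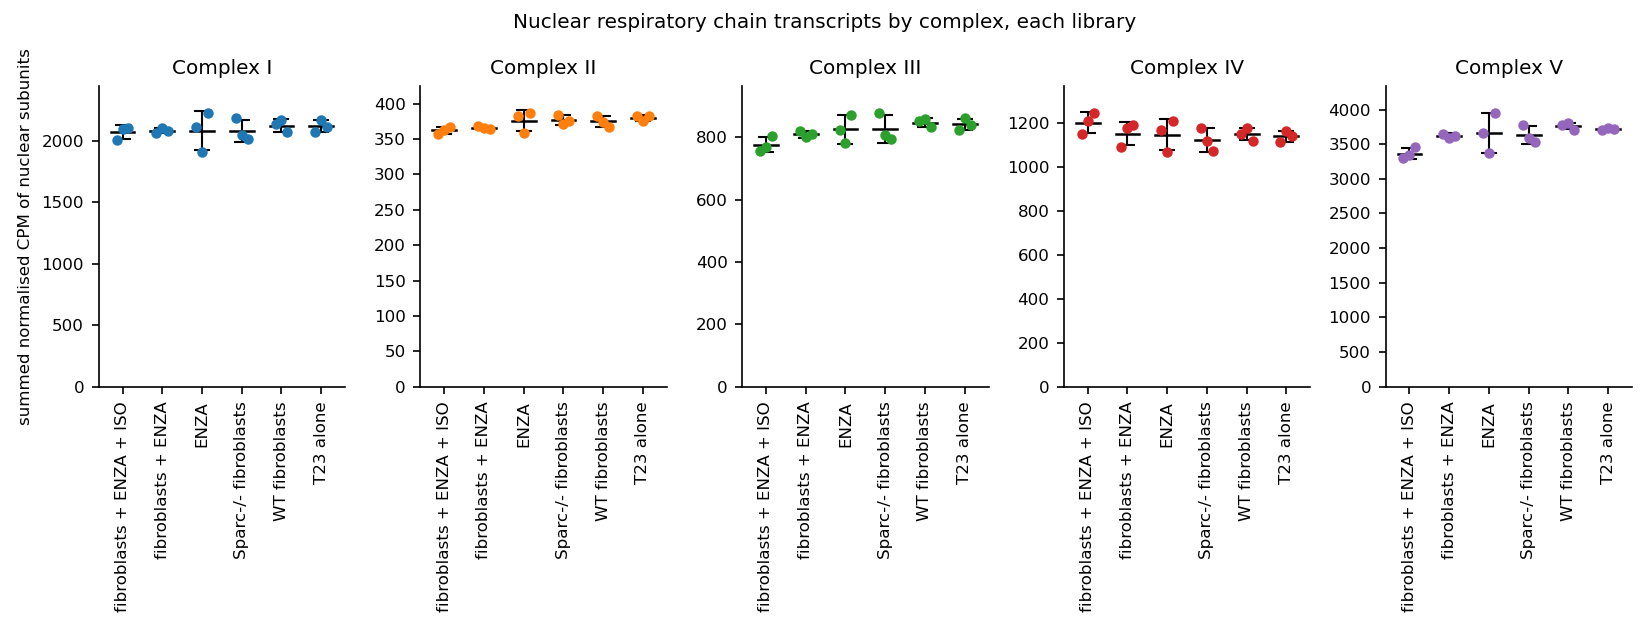
Summed CPM of complexes I to V in each library (points), with the group mean (bar) and SD (error bar) over 3 libraries. Complex V stands at 3296 to 3457 CPM in the isoliquiritigenin co-culture, below its range of 3593 to 3654 CPM in the enzalutamide co-culture.

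Each comparison was tested gene by gene with edgeR's quasi-likelihood F test on the counts, and a gene is called when its Benjamini-Hochberg adjusted p over all 13600 genes is below 0.05. For the typical member the 95% interval of a fold change reached 1.11-fold to either side of the estimate. Comparisons of groups that share libraries (T23 cells alone, the wild-type co-culture or the enzalutamide co-culture stand in several) are not independent of each other, so their values are given side by side.

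Enzalutamide on T23 cells without fibroblasts changed 4 of 80 members against T23 cells alone. Ndufb10 and Uqcrb rose, and Ndufa7 and Atp5e fell. Over all tested genes 6.84% were called higher and 5.19% lower in this comparison, so 2 of 80 members in each direction is no more than the background share. The median log2 fold change of the members was -0.00, and 19 of 80 had an unadjusted p under 0.05, against 3563 of all 13600 tested genes.

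Ndufb10, an accessory subunit of the complex I membrane arm (chr17:24722060-24724478), had 67.1, 69.3 and 70.7 CPM with enzalutamide and 56.3, 60.6 and 57.3 CPM in T23 cells alone. All treated libraries lay above all untreated ones. The log2 fold change was 0.25 ± 0.06 (SE), or 1.19-fold higher, with an adjusted p of 0.0129 in edgeR's quasi-likelihood test. Uqcrb, the subunit of complex III that binds ubiquinone (chr13:66900617-66905378), had 36.4, 48.8 and 37.5 CPM with enzalutamide and 32.7, 34.8 and 31.8 CPM in T23 cells alone. The groups did not overlap, and the highest value was that of the library rich in ribosomal RNA. Its log2 fold change was 0.29 ± 0.09, or 1.22-fold higher, with an adjusted p of 0.0381 from the same edgeR test. Uqcrb shares 43.2% of its windows with other genes, so its level is uncertain.

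Ndufa7, an accessory subunit of the complex I matrix arm (chr17:33824572-33838317), had 83.7, 63.0 and 85.7 CPM with enzalutamide and 92.1, 96.0 and 93.6 CPM in T23 cells alone. Its log2 fold change was -0.26 ± 0.08, or 1.2-fold lower, with an edgeR adjusted p of 0.0263. Atp5e, the epsilon subunit of the central stalk of ATP synthase (chr2:174461072-174464105, promoter shown above), had 55.7, 30.5 and 59.1 CPM with enzalutamide and 68.2, 67.3 and 64.8 CPM in T23 cells alone. It was 1.35-fold lower, with a log2 fold change of -0.43 ± 0.13 and an edgeR adjusted p of 0.0304. For both genes the groups did not overlap, and the lowest value was again that of the library rich in ribosomal RNA.

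Without that library, Ndufb10 was still called (log2 fold change 0.25, edgeR adjusted p = 0.0202), as was Atp5e at a log2 fold change of -0.22 (adjusted p = 0.0476), whereas Uqcrb (0.16, adjusted p = 0.210) and Ndufa7 (-0.15, adjusted p = 0.117) were not. Leaving out replicate 3 of enzalutamide instead, which keeps the library rich in ribosomal RNA among 2, raised the count of called members to 14. The share of all genes called in that fit is not given here, so 14 cannot be set against a background. Leaving out 1 library of T23 cells alone gave 0 called members without replicate 1 or 3, and 2 without replicate 2.

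The same drug in the presence of fibroblasts left 0 of 80 members called against the wild-type co-culture by edgeR, where 12 had an unadjusted p under 0.05 and DESeq2 also called 0. Over all genes 7.18% were called, and 2773 of 13600 had an unadjusted p under 0.05. The smallest adjusted p among members was 0.0758 for Ndufc1, an accessory subunit of complex I, with 25.9, 22.5 and 21.6 CPM in the enzalutamide co-culture and 30.1, 29.2 and 28.3 CPM in the wild-type co-culture. In 20 of 80 members the enzalutamide co-culture lay wholly below the wild-type co-culture, against 12.7% of all tested genes, and in 4 it lay wholly above, against 13.1%. Atp5e was among the 20, with 52.2, 46.8 and 49.0 CPM in the enzalutamide co-culture and 64.9, 57.9 and 62.1 CPM in the wild-type co-culture (log2 fold change -0.32 ± 0.13, adjusted p = 0.150). Ndufa7 was another, with 80.1, 76.9 and 82.1 CPM in the enzalutamide co-culture and 95.5, 87.7 and 88.6 CPM in the wild-type co-culture (log2 fold change -0.18 ± 0.08, adjusted p = 0.163). Log2 fold changes here were 0.09 for Ndufb10 (adjusted p = 0.493) and 0.03 for Uqcrb (adjusted p = 0.880).

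When the enzalutamide library rich in ribosomal RNA, which belongs to neither of these groups, was left out of the fit, 5 members were called lower in the enzalutamide co-culture: Atp5e, Ndufa2, Ndufa7, Ndufc1 and Ndufs7. The share of all genes called in that fit is not given here, so 5 cannot be set against a background. A direct test of whether the enzalutamide response differed with and without fibroblasts called 0 members (edgeR, 0.0221% of all genes called, DESeq2 0 members). Unadjusted p was under 0.05 in 3 members, against 755 of all 13600 tested genes. The smallest adjusted p of that test was 0.759, for Ndufs6, an accessory subunit of complex I that binds zinc. The difference between both responses was 0.11 ± 0.18 on the log2 scale for Atp5e and 0.08 ± 0.11 for Ndufa7. With enzalutamide in both groups, the enzalutamide co-culture against enzalutamide without fibroblasts gave 0 called members by edgeR (2.08% of all genes called) and 1 by DESeq2, Uqcrc2. The share of all genes called by DESeq2 is not given here. Unadjusted p was under 0.05 in 7 members, against 1885 of all 13600 tested genes. The co-culture lay wholly higher in 1 member, against 7.12% of all tested genes, and wholly lower in 7, against 7.74%. Uqcrc2 was one of these, with 124, 119 and 119 CPM in the enzalutamide co-culture and 133, 142 and 129 CPM without fibroblasts (log2 fold change -0.16, edgeR adjusted p = 0.0944).

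**Figure D3:**
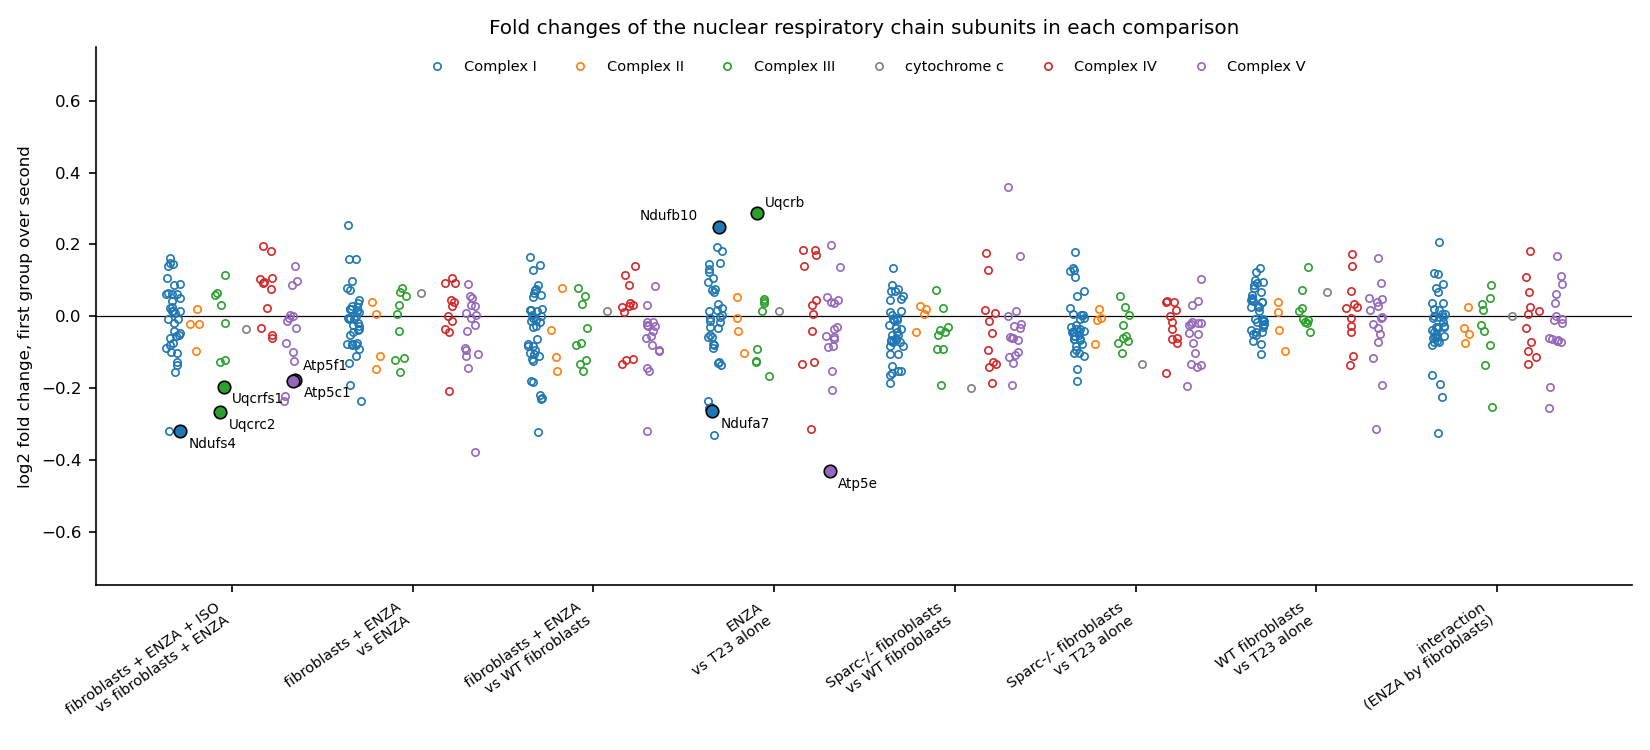
Log2 fold change of each tested member in every comparison, by complex, with called members filled and named. Cox7a1 and Atp5l, which have few counts, are not drawn. Filled points occur for enzalutamide against T23 cells alone (4) and for the isoliquiritigenin co-culture against the enzalutamide co-culture (5).

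With isoliquiritigenin added to the enzalutamide co-culture, 5 of 80 members fell and none rose. They were Ndufs4 in complex I, Uqcrc2 and Uqcrfs1 in complex III, and Atp5c1 and Atp5f1 in complex V. Over all tested genes 26.5% were called here, 12.9% higher and 13.6% lower, so 5 of 80 members is no more than the background share. The median log2 fold change of the members was -0.01, and 12 of 80 had an unadjusted p under 0.05, 2 of them higher and 10 lower. Over all 13600 tested genes 5072 did, 2472 of them higher and 2600 lower.

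Uqcrc2, a core protein of complex III (chr7:120635176-120659524), had 101, 96.7 and 104 CPM with isoliquiritigenin and 124, 119 and 119 CPM in the enzalutamide co-culture. The log2 fold change was -0.27 ± 0.05, or 1.2-fold lower, with an edgeR adjusted p of 0.000163, the smallest of the set. In the other groups, without isoliquiritigenin, Uqcrc2 lay between 126 and 142 CPM, so the isoliquiritigenin libraries were the lowest of all 18. Of its exonic sequence, 19.7% overlaps a gene on the opposite strand, and the strand setting of the counting is not given in the sources used here. Uqcrfs1, the Rieske iron-sulphur protein of the same complex (chr13:30540308-30545362), had 45.9, 46.9 and 45.7 CPM with isoliquiritigenin and 55.7, 54.6 and 48.4 CPM in the enzalutamide co-culture. The groups did not overlap, and the nearest values were 46.9 and 48.4 CPM. Its log2 fold change was -0.20 ± 0.07, or 1.15-fold lower, and its edgeR adjusted p of 0.0452 was the weakest of the 5. Without replicate 1 of the enzalutamide co-culture the adjusted p of Uqcrfs1 was 0.178, without its replicate 2 it was 0.139, and without replicate 1, 2 or 3 of the isoliquiritigenin co-culture it was 0.0994, 0.0839 or 0.0999.

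Ndufs4, a matrix-arm subunit needed for full assembly of complex I (chr13:114287795-114388258, promoter shown above), had 27, 28.5 and 24.2 CPM with isoliquiritigenin and 33.7, 34.0 and 31.8 CPM in the enzalutamide co-culture. Its log2 fold change was -0.32 ± 0.08, or 1.25-fold lower, with an edgeR adjusted p of 0.00348. Over all 18 libraries it was highest in replicate 1 of the Sparc-deficient co-culture, with 42.6 CPM, and lowest in the 3 isoliquiritigenin libraries. The complex I core subunits Ndufs1 and Ndufv1 were not called. Ndufs1, the largest subunit of complex I, had 88.9, 84.8 and 81.6 CPM with isoliquiritigenin and 89.2, 88.1 and 85.3 CPM in the enzalutamide co-culture. Ndufv1, which binds NADH, had 82.5, 94.3 and 91.8 CPM against 102, 95.8 and 101 CPM in the enzalutamide co-culture (log2 fold change -0.15, adjusted p = 0.203). Its libraries did not overlap, yet the difference missed the threshold.

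In ATP synthase, Atp5c1, the gamma subunit that forms the rotor shaft (chr2:10056016-10080510, promoter shown above), had 232, 218 and 244 CPM with isoliquiritigenin and 262, 261 and 263 CPM in the enzalutamide co-culture. The log2 fold change was -0.18 ± 0.05, or 1.13-fold lower, with an edgeR adjusted p of 0.00487. Atp5f1, the peripheral stalk subunit b (chr3:105942698-105960099), had 196, 190 and 193 CPM with isoliquiritigenin and 224, 219 and 212 CPM in the enzalutamide co-culture. It was 1.13-fold lower, with a log2 fold change of -0.18 ± 0.05 and an edgeR adjusted p of 0.00705, and it shares 22.5% of its windows with other genes. For both genes the 3 isoliquiritigenin libraries were the lowest of all 18.

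Several larger subunits of ATP synthase had lower means with isoliquiritigenin and missed the threshold. Atp5b had 1167, 1180 and 1243 CPM with isoliquiritigenin and 1318, 1300 and 1295 CPM in the enzalutamide co-culture (log2 fold change -0.12, adjusted p = 0.112). Atp5a1 had 750, 776 and 788 CPM against 807, 828 and 843 CPM in the enzalutamide co-culture (-0.10, adjusted p = 0.148). Among the c-ring genes, Atp5g3 had 194, 198 and 199 CPM with isoliquiritigenin and 247, 222 and 219 CPM in the enzalutamide co-culture (-0.22, adjusted p = 0.0543). Atp5g2 had 26.7, 29.3 and 29.7 CPM against 30.4, 31.6 and 35.2 CPM in the enzalutamide co-culture (-0.18, adjusted p = 0.0865). For all 4 genes the isoliquiritigenin libraries lay wholly below the enzalutamide co-culture. The remaining c-ring gene, Atp5g1, lay wholly above, with 51.6, 47.3 and 51.0 CPM with isoliquiritigenin and 45.9, 45.1 and 45.1 CPM in the enzalutamide co-culture (0.14, adjusted p = 0.211).

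**Figure D4:**
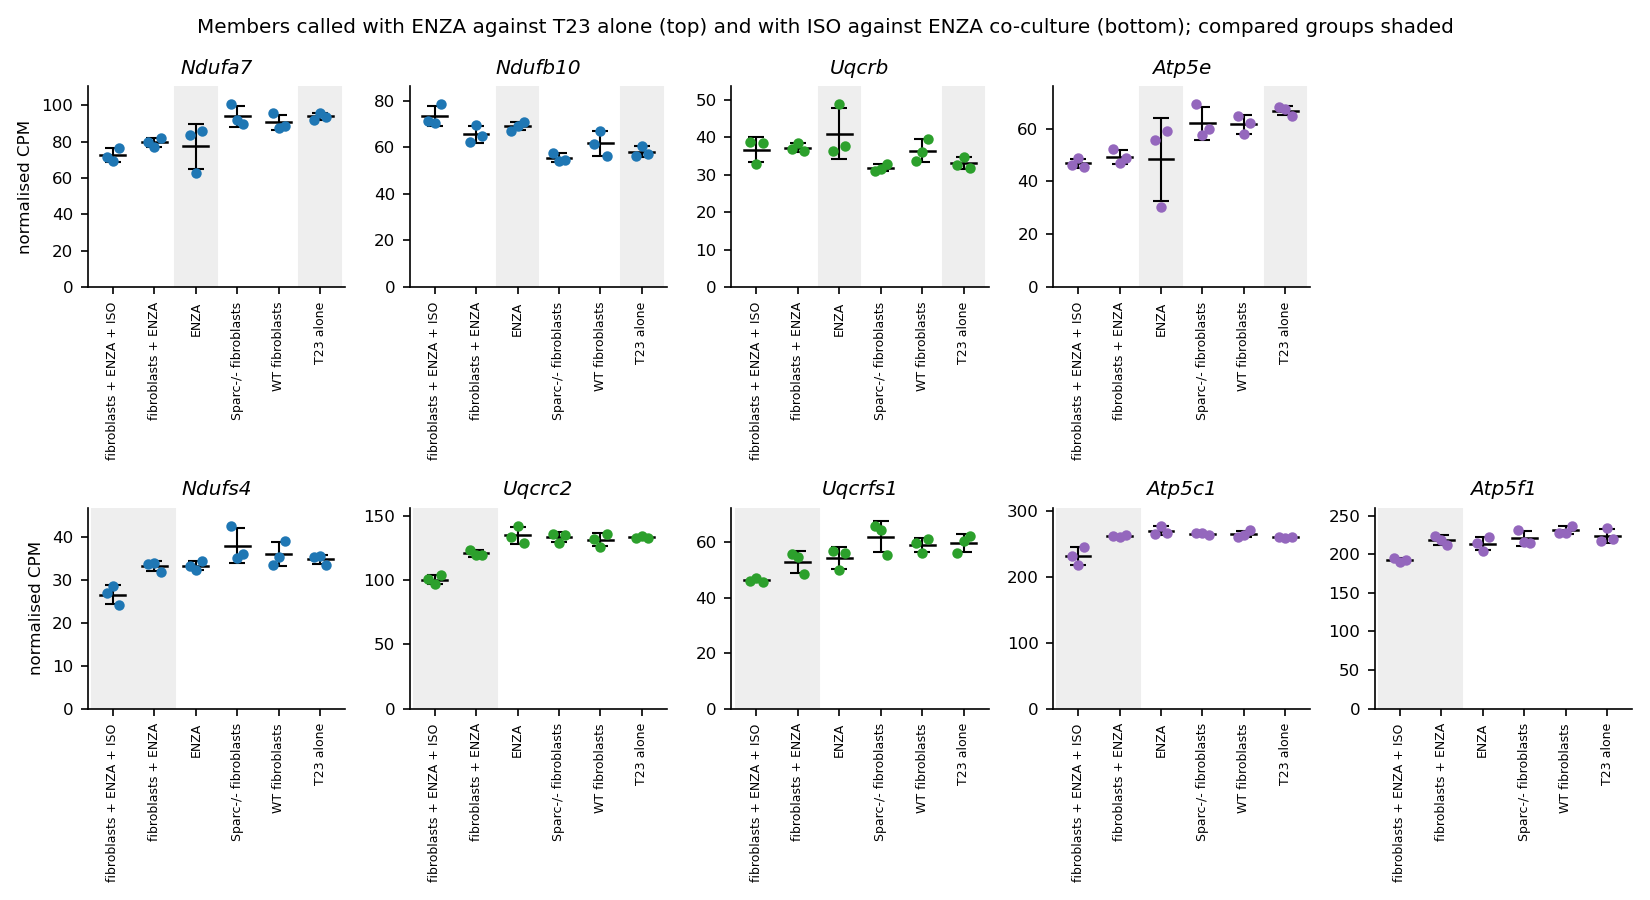
CPM of the 9 called members in all 18 libraries (points), with group mean (bar) and SD (error bar), compared groups shaded. The top row holds the 4 members called for enzalutamide against T23 cells alone, such as Ndufb10 at 67.1 to 70.7 CPM with enzalutamide and 56.3 to 60.6 CPM in T23 cells alone, and the bottom row the 5 called for isoliquiritigenin, such as Uqcrc2 at 96.7 to 104 CPM with isoliquiritigenin and 119 to 124 CPM in the enzalutamide co-culture.

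Over all 80 members, 17 lay wholly lower in the isoliquiritigenin co-culture than in the enzalutamide co-culture, against 20.6% of all tested genes, and 7 lay wholly higher, against 19.9%. Of the 17 tested members of complex V, 12 had a negative log2 fold change (median -0.03), and of the 12 of complex IV, 9 had a positive one (median 0.09). Over all 13600 tested genes 6805 were negative and 6795 positive. Summed over complex V, the level was 3296, 3339 and 3457 CPM with isoliquiritigenin and 3654, 3593 and 3625 CPM in the enzalutamide co-culture. Complex V made up 43.5, 42.8 and 43.2% of the summed members with isoliquiritigenin, against 45.6, 44.6 and 44.8% in the enzalutamide co-culture. The share of complex IV was 15.2, 15.5 and 15.5% with isoliquiritigenin, against 13.6, 14.6 and 14.7% in the enzalutamide co-culture. Neither share overlapped between the groups, but shares of 1 total depend on each other and were not tested. The summed CPM of complex IV did overlap. It was 1150, 1207 and 1242 CPM with isoliquiritigenin and 1088, 1174 and 1187 CPM in the enzalutamide co-culture. On the TPM scale the complex IV sums did not overlap. Complex I summed to 2066 ± 56.8 CPM with isoliquiritigenin and 2080 ± 18.7 CPM in the enzalutamide co-culture (SD, n = 3 each), a difference smaller than the SD of the isoliquiritigenin group.

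No member of complex II was called with isoliquiritigenin. Sdha, its flavoprotein, had 153, 152 and 154 CPM with isoliquiritigenin and 146, 157 and 149 CPM in the enzalutamide co-culture (log2 fold change 0.02, edgeR adjusted p = 0.762). Cox4i1, the regulatory subunit of complex IV, had 222, 238 and 242 CPM against 215, 229 and 223 CPM in the enzalutamide co-culture (0.08, adjusted p = 0.471). Cycs had 22.1, 23.3 and 22.2 CPM against 23.2, 22.6 and 23.3 CPM in the enzalutamide co-culture (-0.03, adjusted p = 0.791). Their ranges overlapped.

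The index that ends each sample title restarts within the enzalutamide co-culture. Its replicate 1 belongs to the first numbering, with the 4 groups that lack isoliquiritigenin and have not both fibroblasts and drug, and its replicates 2 and 3 belong to the second, with the isoliquiritigenin co-culture. With the numbering as a term in the edgeR fit, Uqcrc2 (log2 fold change -0.25, adjusted p = 0.00145), Atp5c1 (-0.18, adjusted p = 0.0154), Ndufs4 (-0.31, adjusted p = 0.0155) and Atp5f1 (-0.16, adjusted p = 0.0354) were still called. Uqcrfs1 was not (-0.16, adjusted p = 0.173). Only the enzalutamide co-culture spans both numberings, so this fit is nearly the same check as leaving out its replicate 1. In the fit without the enzalutamide library rich in ribosomal RNA, 10 members were called with isoliquiritigenin. These were the 5 above, Atp5b, Atp5g3, Atp5mpl and Ndufv1 (lower) and Ndufb10 (higher). The share of all genes called in that fit is not given here, so 10 cannot be set against a background.

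Wild-type fibroblasts without drug changed 0 of 80 members against T23 cells alone by edgeR, where 0.515% of all genes were called. Unadjusted p was under 0.05 in 4 members, against 1420 of all 13600 tested genes, and DESeq2 called 0 members. In 77 of 80 members the 95% interval of the fold change stayed within 1.5-fold. The smallest adjusted p was 0.241 for Cox7b, a small subunit of complex IV, with 92.4, 101 and 106 CPM in the wild-type co-culture and 85.6, 94.2 and 86.5 CPM in T23 cells alone, where 1 library of each group fell in the range of the other. The wild-type co-culture lay wholly above T23 cells alone in 9 members, against 10.6% of all tested genes, and wholly below in 6, against 9.85%.

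Fibroblasts lacking Sparc changed 0 of 80 members against wild-type fibroblasts by edgeR, where 11.5% of all genes were called. Unadjusted p was under 0.05 in 13 members, 3 higher and 10 lower. Over all 13600 tested genes it was in 3366, 1780 higher and 1586 lower. DESeq2 called 2 members, Cox6c and Ndufs1, both lower. The share of all genes called by DESeq2 is not given here, so these 2 cannot be set against a background. Ndufs1 was closest to the threshold, with 81.1, 72.6 and 79.6 CPM in the Sparc-deficient co-culture and 85.5, 86.6 and 87.2 CPM in the wild-type co-culture (log2 fold change -0.15, edgeR adjusted p = 0.0510). Cycs had 20.3, 19.1 and 20.2 CPM in the Sparc-deficient co-culture and 24.5, 23.6 and 20.4 CPM in the wild-type co-culture (-0.20, adjusted p = 0.120). Both genes were lower in every Sparc-deficient library than in any wild-type one, although for Cycs the nearest values were 20.3 CPM in a Sparc-deficient and 20.4 CPM in a wild-type library. Over all members, 6 lay wholly lower (14.8% of all tested genes) and 4 wholly higher (15.6%).

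Against T23 cells alone, the Sparc-deficient co-culture also had 0 called members by edgeR and by DESeq2, with 9.74% of all genes called by edgeR. Unadjusted p was under 0.05 in 4 members, against 3028 of all 13600 tested genes. The smallest adjusted p was 0.155 for Ndufv3, an accessory subunit of complex I. In this comparison 9 members lay wholly lower (15.6% of all tested genes) and 3 wholly higher (17.2%). Of 80 members, 56 had a negative log2 fold change (median -0.04), against 7037 of all 13600 tested genes (median -0.0058).

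The remaining members named by rule were called in none of the 8 tests. In complex I, Ndufb8 ranged from 63.1 to 78.6 CPM over the 18 libraries, Ndufa4 from 124 to 180 CPM and Ndufab1, the acyl carrier protein, from 17.5 to 25.2 CPM. In complex III, Cyc1 ranged from 93.9 to 141 CPM. In complex IV, Cox5a ranged from 30.5 to 51.9 CPM, Cox6a1 from 133 to 171 CPM, Cox8a from 137 to 181 CPM and Cox7a2l, a factor that joins complexes III and IV into supercomplexes, from 86.8 to 134 CPM. The library rich in ribosomal RNA held the lowest value of Ndufa4, Ndufab1, Cyc1 and Cox6a1 and the highest of Cox7a2l. In complex II, Sdhb ranged from 50.4 to 59.1 CPM, Sdhd from 85.3 to 105 CPM and Sdhc from 66.4 to 88.2 CPM. Sdhc had 75.5, 67.0 and 70.7 CPM in the enzalutamide co-culture, wholly below the 78.5, 79.9 and 78.5 CPM of the wild-type co-culture (log2 fold change -0.15, edgeR adjusted p = 0.134).

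The subunits encoded by mitochondrial DNA rose with enzalutamide on T23 cells without fibroblasts. Of 13, 7 had enough counts to be tested, and all 7 rose with enzalutamide against T23 cells alone, with a median log2 fold change of 1.25 against -0.00 for the nuclear members, where 6.84% of all tested genes were called higher. Without the library rich in ribosomal RNA all 7 were still called, with a median of 0.87. mt-Cytb, the cytochrome b core of complex III, had 2870, 5045 and 4075 CPM with enzalutamide and 1032, 977 and 1410 CPM in T23 cells alone. It was 3.51-fold higher, with an edgeR adjusted p of 0.000139. mt-Nd4, a proton-pumping subunit of complex I, was 3.61-fold higher (adjusted p = 0.000161). The library rich in ribosomal RNA was highest for both genes, and the other 2 treated libraries also lay above all untreated ones.

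In the enzalutamide co-culture all 7 rose against the wild-type co-culture (median log2 fold change 1.11 against -0.03 for the nuclear members, with 503 of all 13600 tested genes called higher). The title numbering is partly confounded with this comparison, since 2 of the 3 enzalutamide co-culture libraries belong to the second and all wild-type ones to the first. Only the enzalutamide co-culture spans both numberings, so a numbering term rests this comparison on its replicate 1. Calls lost with that term therefore cannot show whether the rise depends on the numbering. With the numbering as a term 0 of 7 were called by edgeR (median 0.68, smallest adjusted p 0.178). mt-Nd5, another proton-pumping subunit of complex I, had 1635, 2536 and 2420 CPM in the enzalutamide co-culture and 1299, 858 and 905 CPM in the wild-type co-culture, 2.15-fold higher with an edgeR adjusted p of 0.000497. With isoliquiritigenin added, 4 of 7 rose further against the enzalutamide co-culture (median 0.62 against -0.01 for the nuclear members, with 12.9% of all tested genes called higher). With the numbering as a term 0 of 7 were called (median 0.44, smallest edgeR adjusted p 0.0961), as was the case without replicate 1 of the enzalutamide co-culture (0.0942). The term is set by that replicate against replicates 2 and 3, so these 2 fits are nearly the same check. Without replicate 2 or 3 of the isoliquiritigenin co-culture 1 or 2 were called, and DESeq2 called 1. The shares of all genes called in these fits are not given here. Among the 4 was mt-Nd2, also of the complex I membrane arm, with 2711, 3036 and 3135 CPM with isoliquiritigenin and 1377, 2222 and 2032 CPM in the enzalutamide co-culture (1.58-fold higher, edgeR adjusted p = 0.0130). The groups did not overlap for mt-Nd5 in the first of these comparisons or for mt-Nd2 in the second.

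mt-Co1, the catalytic subunit of complex IV, had 3056, 7025 and 7050 CPM in the Sparc-deficient co-culture, against 4170, 2304 and 2171 CPM in the wild-type co-culture and 2325, 2182 and 3583 CPM in T23 cells alone. It was 1.98-fold higher than in the wild-type co-culture (edgeR adjusted p = 0.0359) and 2.12-fold higher than in T23 cells alone (adjusted p = 0.0245). The lowest Sparc-deficient library lay within the range of both other groups. DESeq2 called no mitochondrially encoded subunit in either comparison (smallest adjusted p 0.0813 against the wild-type co-culture and 0.0552 against T23 cells alone). By edgeR the call against the wild-type co-culture was lost without replicate 2 or 3 of either group, and with the replicate number as a block (adjusted p = 0.0582). The call against T23 cells alone was lost without replicate 2 or 3 of the Sparc-deficient co-culture or replicate 1 or 2 of T23 cells alone. No other of the 7 tested mitochondrially encoded subunits was called by edgeR in either of these 2 comparisons. Over all 13600 tested genes, 914 were called higher against the wild-type co-culture and 829 against T23 cells alone.

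Summed over the mitochondrially encoded subunits, the level was 26047, 34475 and 36022 CPM in the isoliquiritigenin co-culture and 14408, 26016 and 26191 CPM in the enzalutamide co-culture. The 14408 CPM are those of replicate 1 of the enzalutamide co-culture, the single library of its group in the first title numbering. Its wild-type counterparts of the same numbering reached 12366 CPM. Within the second numbering the ranges of the isoliquiritigenin and enzalutamide co-cultures overlap, at 26047 CPM with isoliquiritigenin against 26016 and 26191 CPM without it. Enzalutamide without fibroblasts gave 17773, 31542 and 22129 CPM, against 7577, 7440 and 10222 CPM in T23 cells alone. The Sparc-deficient co-culture had 8370, 15622 and 15261 CPM and the wild-type co-culture 12366, 7775 and 7559 CPM, so 1 library of each of these groups lay in the range of the other. The libraries had been made by capture of polyadenylated RNA, and the part of capture or RNA quality in these differences was not tested.

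**Figure D5:**
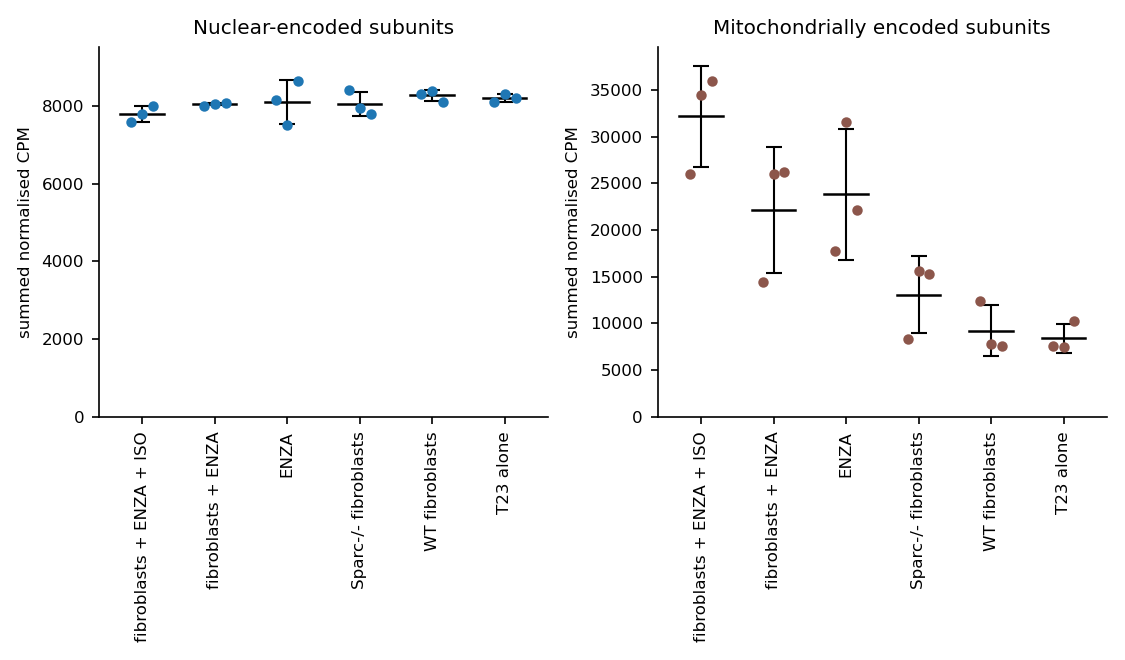
Summed CPM of the nuclear-encoded members and of the mitochondrially encoded subunits in each library (points), with group mean (bar) and SD (error bar). The nuclear sum stays between 7510 and 8656 CPM in all 18 libraries, while the mitochondrial sum runs from 7440 to 36022 CPM.

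Genes that assemble or regulate the chain gave few calls. Of 16 tested assembly factors of complex I, 3 fell with isoliquiritigenin, led by Nubpl, which delivers iron-sulphur clusters (3.19, 3.72 and 3.33 CPM against 5.28, 4.70 and 5.28 CPM in the enzalutamide co-culture, 1.5-fold lower, edgeR adjusted p = 0.00325), and none was called elsewhere. Over all tested genes 13.6% were called lower with isoliquiritigenin, so 3 of 16 is near the background share. Of 10 tested assembly factors of complexes II and III, 0 were called by edgeR in any comparison. Complex IV had 17 tested factors. Cox15, which makes haem a, fell in both undrugged co-cultures, with 34.6, 36.9 and 34.4 CPM in the Sparc-deficient co-culture, 35.2, 36.4 and 35.7 CPM in the wild-type co-culture and 44.2, 41.7 and 44.0 CPM in T23 cells alone. Its adjusted p against T23 cells alone was 0.00102 in the Sparc-deficient and 0.0223 in the wild-type co-culture. Its 6 co-culture libraries all lay below the 3 of T23 cells alone. Cox15 was the 1 of 17 called in each, where 9.74% (Sparc-deficient) and 0.515% (wild-type) of all tested genes were called. Coa7 fell in the Sparc-deficient against the wild-type co-culture (1.26-fold lower, adjusted p = 0.00671), 1 of 17 where 11.5% of all tested genes were called. With enzalutamide alone, 1 complex IV factor rose (Taco1, a translational activator of mt-Co1, 1.34-fold, adjusted p = 0.0199) and 2 fell, among them Cox14 (1.26-fold lower, adjusted p = 0.0251). Over all tested genes 6.84% were called higher and 5.19% lower there. Coa6, which delivers copper, rose with isoliquiritigenin (1.37-fold, adjusted p = 0.0243), 1 of 17 where 12.9% of all tested genes were called higher. Atpif1, the inhibitor of ATP synthase, rose with enzalutamide, with 34.7, 39.2 and 37.7 CPM against 30.8, 29.9 and 30.8 CPM in T23 cells alone (1.21-fold, adjusted p = 0.0151). It was the 1 called of 5 tested assembly factors and inhibitor of complex V, where 6.84% of all tested genes were called higher. The library rich in ribosomal RNA held the highest value of Atpif1 and the lowest of Cox14 in this comparison. Results without that library are not given here for these genes.

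Among 15 regulators of respiratory gene transcription, 1 rose and 3 fell with isoliquiritigenin, a share near the 26.5% of all tested genes called in this comparison. Ppargc1a, the coactivator PGC-1 alpha, had 5.42, 6.25 and 4.81 CPM with isoliquiritigenin and 1.96, 2.45 and 3.78 CPM in the enzalutamide co-culture, 2.01-fold higher with an edgeR adjusted p of 0.000853. Nrf1, which encodes the factor that binds the NRF1 motif, had 38.8, 38.8 and 41.8 CPM with isoliquiritigenin and 44.8, 47.2 and 45.0 CPM in the enzalutamide co-culture, 1.15-fold lower with an adjusted p of 0.00962. In the Sparc-deficient against the wild-type co-culture the related coactivator Pprc1 fell 1.15-fold (edgeR adjusted p = 0.0355). It was the 1 of 15 called there, where 652 of all 13600 tested genes were called lower. No regulator was called in the other comparisons. Of 18 genes of the tricarboxylic acid cycle, which supplies NADH and succinate, 5 fell with isoliquiritigenin (median log2 fold change -0.11 against -0.00 for all tested genes, of which 13.6% were called lower and 12.9% higher). Fh1, fumarate hydratase, had 59.8, 56.9 and 58.7 CPM with isoliquiritigenin and 74.6, 69.9 and 69.8 CPM in the enzalutamide co-culture (1.22-fold lower, adjusted p = 0.000259). Suclg2, a subunit of succinyl-CoA ligase, was 1.21-fold lower with isoliquiritigenin (edgeR adjusted p = 0.000335) and 1.16-fold higher with enzalutamide against T23 cells alone (edgeR adjusted p = 0.00768). The rise was 1 of 18 where 6.84% of all tested genes were called higher. Its highest value was that of the library rich in ribosomal RNA. Ogdh, a component of the oxoglutarate dehydrogenase complex, rose 1.15-fold in the enzalutamide co-culture against the wild-type co-culture (edgeR adjusted p = 0.0120). It was the 1 of 18 called there, where 503 of all 13600 tested genes were called higher.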

How the data were processed

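Poly(A) libraries (TruSeq Stranded mRNA) were run on a NextSeq 550, per the labels. The authors deposited raw counts per gene, 1 file per library. The submitters' processing notes name GRCm38 and, with no role or order, featureCounts 2.0, STAR 2.6.1d, cutadapt 2.9, DESeq2, bcl2fastq and FastQC 0.11.9. The annotation release, strand setting and treatment of multiply matching reads are not given in the sources used here, so genes with shared or antisense sequence are uncertain.

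Symbols, biotypes and coordinates came from GENCODE M21 on GRCm38, which held 55227 of 55487 identifiers, and the other 260 held 0.0055% of counts. Genes were filtered with filterByExpr (minimum count 10), which left 13600. A model with a mean per group was fitted to the TMM-scaled counts of all 18 libraries with edgeR 4.0.16 under R 4.3.3, using limma 3.58.1. It left 12 residual degrees of freedom, and the biological coefficient of variation was 7.03%. Two-sided quasi-likelihood F tests were adjusted by Benjamini-Hochberg over all tested genes. SE was taken from the absolute log2 fold change divided by √F. The code was tested on simulated data. The 7 comparisons and the interaction were rerun with DESeq2 1.42.0 and the other alternatives of the closing section. TPM used messenger RNA length over protein-coding genes, a choice made after seeing the data because an exonic-length TPM over all genes moved with ribosomal RNA in 1 library. Floors of 3 counts cover counting error only.

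Replicate numbers did not pair libraries. Same-number correlations of deviations from group means ran from -0.144 to 0.0982, and in 0 of 15 pairs of groups were all 3 above 0.1.

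The members, gene lists and naming rule were chosen with earlier results of these data known. The rule names a fixed set of subunits, up to 3 called members per complex and up to 2 called genes of each other list, by smallest p. Members named outside it, such as those at the ends of a range or nearest a threshold, were chosen after their values were seen.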

Additional observations from a re-analysis of the deposited data

How the results depend on the processing

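Calls of members were recomputed under each alternative, and no called member changed direction. Some medians and summed ratios near 0 did change sign, as given below. Shares of all genes called under the alternatives are not given here, so the counts below do not show whether members exceed the background. The call of Ndufs4, Uqcrc2, Atp5c1 and Atp5f1 with isoliquiritigenin held under all 16 alternatives run for that comparison. With isoliquiritigenin 5 members were called, and 9 with the gene-length trend removed, 8 with the compared groups alone, 10 without the enzalutamide library rich in ribosomal RNA and 13 without it and with the length trend removed, a combination chosen after seeing the data. For enzalutamide against T23 cells alone the 4 calls became 9 with no filter, 10 with the length trend removed and 1 with the compared groups alone, and 0 to 14 with 1 library left out. Atp5e was lost with the compared groups alone (adjusted p = 0.175), with DESeq2 (0.0630) and without any 1 library of T23 cells alone (0.0665 to 0.0894). Ndufb10 was lost without replicate 1 (0.0661) or 3 (0.0582) of T23 cells alone.

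The enzalutamide co-culture against the wild-type co-culture, with 0 calls, had 3 with no filter, 1 with the length trend removed, 5 with the compared groups alone, 5 without the library named above, 3 with that and the length trend removed, and 0 to 1 with 1 library left out. The Sparc-deficient against the wild-type co-culture had 1 with upper-quartile scaling, 1 with the length trend removed, 2 without the enzalutamide library named above, 2 with that and the length trend removed, 2 by DESeq2 and 0 to 2 with 1 library left out. Against T23 cells alone it had 2 with the compared groups alone and 1 with the combination. The enzalutamide co-culture against enzalutamide without fibroblasts had 1 without that library, 1 with the combination, 1 by DESeq2 and 0 to 1 with 1 library left out. Its median log2 fold change was -0.058 without that library and ran from -0.058 to 0.044 over libraries left out, and that of enzalutamide against T23 cells alone from -0.071 to 0.030.

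With the replicate number as a block, 4 members were called for enzalutamide against T23 cells alone and 4 with isoliquiritigenin, where Uqcrfs1 was lost (adjusted p = 0.0546), and 0 in the other comparisons. Since the numbers do not pair libraries, this block says nothing of a weaker effect.

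The log2 ratio of summed members moved with the scale. For enzalutamide against T23 cells alone it was -0.02 in CPM, -0.54 in TPM from exonic length over all genes and -0.24 as a share of raw counts. For the enzalutamide co-culture against enzalutamide without fibroblasts it was -0.01, 0.47 and 0.18 on the same scales, and for the interaction -0.02, 0.47 and 0.19. The other scales divide by totals that hold the ribosomal RNA of 1 library. With isoliquiritigenin it was -0.05 in CPM and 0.0051 in TPM from messenger RNA length over protein-coding genes, a scale chosen after seeing the data. The cause of the other moves was not tested. Depth limits Cox7a1 and Atp5l, which have 1 to 27 counts per library, and the 7 members that were not tested.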

Other observations

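Ribosomal proteins, which share with the respiratory subunits short and abundant messenger RNAs, were described with the same edgeR test, and this group was chosen with earlier results of these data known. Of 79 tested cytosolic ribosomal proteins, 25 fell and 1 rose with isoliquiritigenin against the enzalutamide co-culture. Their median log2 fold change was -0.14, against -0.00 over all tested genes, of which 13.6% were called lower and 12.9% higher. Rpl3, of the large subunit, had 684, 661 and 713 CPM with isoliquiritigenin and 887, 826 and 843 CPM in the enzalutamide co-culture, 1.24-fold lower with an adjusted p of 5.67e-05. With enzalutamide against T23 cells alone 10 rose and 2 fell, where 6.84% of all tested genes were called higher and 5.19% lower. They were led by Rpl23 with 787, 1167 and 761 CPM with enzalutamide and 619, 615 and 611 CPM in T23 cells alone (1.47-fold higher, adjusted p = 0.00131). The highest of these values was that of the library rich in ribosomal RNA. The enzalutamide co-culture against enzalutamide without fibroblasts had 6 lower and 0 higher, where 128 of all 13600 tested genes were called lower and 155 higher. The other comparisons had at most 1 called.

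Of 77 tested mitochondrial ribosomal proteins, which translate the mitochondrially encoded subunits, 3 rose and 4 fell with isoliquiritigenin, and 3 rose with enzalutamide against T23 cells alone. Both counts are shares below those of all tested genes, of which 26.5% were called with isoliquiritigenin and 6.84% called higher with enzalutamide. Mrpl43 fell with isoliquiritigenin, with 17.3, 18.7 and 17.1 CPM against 23.5, 20.7 and 21.3 CPM in the enzalutamide co-culture (1.24-fold lower, edgeR adjusted p = 0.00346). Mrps6 was the 1 of 77 called in the wild-type co-culture against T23 cells alone, where 0.515% of all tested genes were called. It had 23.8, 26.8 and 22.1 CPM in the co-culture and 18.6, 18.7 and 17.2 CPM in T23 cells alone (1.34-fold higher, edgeR adjusted p = 0.0227). Mrpl20 fell in the Sparc-deficient co-culture, with 21, 18.3 and 18.0 CPM against 24.0, 26.4 and 23.3 CPM in the wild-type co-culture (1.29-fold lower, edgeR adjusted p = 0.00348). There 2 of 77 were called lower and 0 higher, against 652 lower and 914 higher of all 13600 tested genes. For these 3 genes the compared groups did not overlap.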
